A study of Mus musculus with 60 samples.

Results

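Irradiation was examined in mice that had already been given the study's highest dose of BIO 300. The 6 male CD2F1 mice dosed at 200 mg/kg and exposed to 9.2 Gy of cobalt-60 total-body irradiation (TBI), animals 55 to 60 (BIO300-High TBI Day 1), were set against 6 unirradiated mice of the same dose and day, animals 43 to 48 (BIO300-High Day 1), so that 12 of the 60 whole-blood RNA-seq libraries of the series entered the comparison. The members were the mice of those groups by their labels, and their counts were joined by Ensembl gene ID. BIO 300 is an oral amorphous solid dispersion of synthetic genistein, a soy isoflavone that binds oestrogen receptors. All 12 mice, 5 to 6 weeks old when purchased, had received drug by gavage morning and evening for 6 days, 12 doses in all. Exposure took place 24 h after the last dose, and blood was drawn from the inferior vena cava into PAXgene tubes 24 h after TBI, which was 48 h after the last dose. Each library came from a different mouse, bled once. Mice given the vehicle (water, methylcellulose and polyvinylpyrrolidone) on the same schedule, 6 unirradiated and 6 irradiated (Vehicle Day 1 and Vehicle TBI Day 1), gave the same contrast without drug. The question was which responses to radiation could be read in blood over the drug background.

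Ionizing radiation breaks DNA, and the transcription factor p53 answers by switching on genes that arrest the cell cycle, repair DNA or start apoptosis. Circulating lymphocytes, B cells above all, are among the cells that die soonest after exposure, whereas neutrophils are released early from marrow stores and dividing red cell precursors stop being replaced. Whole-blood RNA therefore mixes the responses of single cells with changes in which cells are present. In these bulk samples fewer cells of a type and less RNA per cell cannot be told apart.

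Of 23610 genes tested, 3521 (14.9%) were higher and 1352 (5.73%) were lower in the irradiated mice, where a differentially expressed gene (DEG) needed a change of more than 1 on the log2 scale in either direction and an edgeR adjusted p below 0.05. The vehicle contrast gave 4920 higher (19.6%) and 4122 lower (16.4%) of 25146 genes. These shares of all genes are the background for the list counts below. Levels below are in CPM, a gene's count relative to its library's total after scaling by the trimmed mean of M-values (TMM), and each fold change is irradiated over unirradiated on the log2 scale. The scaling factors ran from 0.539 to 0.98 in unirradiated and from 1.047 to 2.036 in irradiated mice, without overlap. The median log2 fold change of all genes was 0.41, and when libraries were scaled to their total counts it became 1.31, with 9100 DEGs higher (38.5%) and 223 lower (0.945%). Genes that were higher made up 72.3% of DEGs, against 97.6% with total counts. Falls are therefore falls relative to the bulk of the transcripts, and the sign of small changes depended on the scaling.

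Library totals ran from 18332440 to 38337851 counts in unirradiated and from 22188321 to 38551640 in irradiated mice. Haemoglobin took 10.8% to 22.1% of counts in the first group and 6.29% to 13.9% in the second, and the noncoding RNA Gm26917 took 0.0562% to 1.46% and 1.1% to 5.43%. Mice 43, 57 and 59 stood apart by transcripts of solid tissue. In irradiated mouse 57 all 20 genes of a hepatocyte list were above 10 CPM with a sum of 11300 CPM, and in unirradiated mouse 43 the same held for 19 of 20 with a sum of 1210 CPM. The sum was 0.501 to 108 CPM in the other 10 mice. Irradiated mouse 59 held 8 of 10 adipocyte genes above 10 CPM with a sum of 321 CPM. The plot of tissue transcripts by mouse shows these libraries beside the others, and all 12 held the red cell gene Slc4a1, the platelet gene Ppbp and the neutrophil gene Csf3r of whole blood at 85.1 CPM or more. Without mice 43, 57 and 59, a choice made after their levels were seen, 3590 genes were higher and 1830 lower of 20185 tested. List counts without these mice are to be read beside those counts and not beside the shares in all 12 mice.

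**Figure D1:**
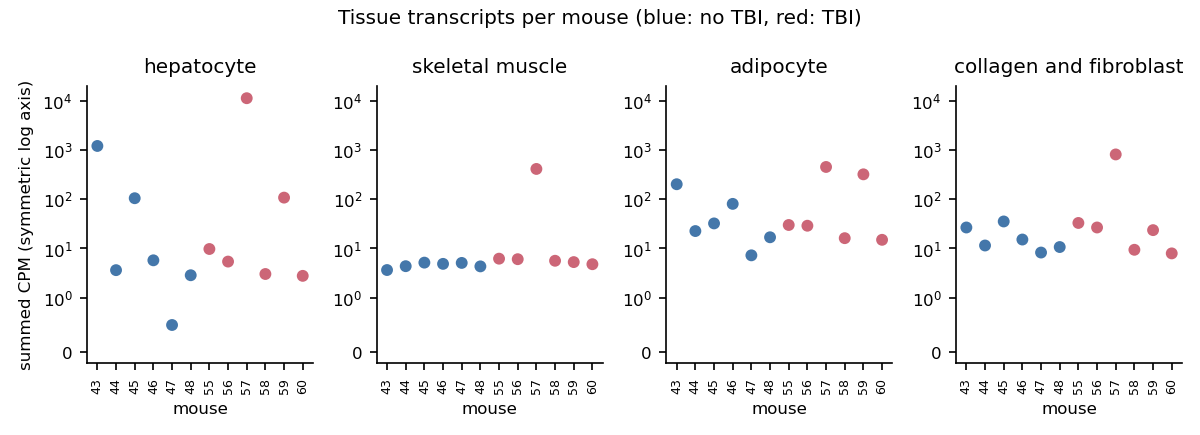
Summed CPM of hepatocyte, skeletal muscle, adipocyte and collagen genes in each mouse on a symmetric log axis (linear below 1), with unirradiated mice in blue and irradiated mice in red. Mouse 57 reached 11300 CPM for hepatocyte genes, and mouse 43 reached 1210 CPM for them. The sum of the skeletal muscle list was 413 CPM in mouse 57, where 3 of its 10 genes were above 10 CPM. The source of these transcripts was not tested.

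The largest rises were in interferon-stimulated and myeloid genes. Slfn4, a Schlafen family member of myeloid cells (GRCm38 chromosome 11, 83175186 to 83190216), was measured at 21.6, 4.74, 5.62, 9.47, 3.34 and 2.95 CPM in unirradiated mice 43 to 48 and at 3240, 1590, 590, 1530, 2210 and 609 CPM in irradiated mice 55 to 60. The lowest irradiated mouse lay far above the highest unirradiated mouse, and the log2 fold change was 7.67 ± 0.72 (SE, n = 6 per group, edgeR adjusted p = 3.1e-05). Other genes among the 10 largest rises at 10 CPM or more were Oas2, which senses double-stranded RNA (5.50 ± 0.55), the antiviral membrane protein gene Ifitm1 (5.15 ± 0.43), the receptor gene Gpr182 (4.94 ± 0.38), the cation channel gene Trpm2 (4.93 ± 0.43), Prr33 (4.92 ± 0.71), Ifit3b (4.85 ± 0.54), Trim30b (4.85 ± 0.48) and Oasl2 (4.78 ± 0.55). The naming rule took only genes without overlap between groups, so their separation is not a result. Each of these genes stayed a DEG when any 1 mouse was left out. Among genes with predicted symbols, Gm44292, 1700071M16Rik and Gm15832 rose most, by 5.93, 5.32 and 5.12.

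The largest falls were in B-cell and antigen-presentation genes. Ighd, the constant region of IgD on mature naive B cells (chromosome 12, 113406604 to 113416324), was measured at 69, 53.6, 54.4, 106, 35.1 and 73.6 CPM without TBI and at 1.98, 2.69, 1.33, 3.5, 2.08 and 1.48 CPM after it. All 6 irradiated mice were below every unirradiated mouse, a log2 fold change of -4.91 ± 0.33 (edgeR adjusted p = 1.56e-05). Next came the B-cell survival receptor gene Tnfrsf13c (-3.77 ± 0.32), the IgE receptor gene Fcer2a (-3.49 ± 0.37), Ciita (-3.35 ± 0.36), Fcrla (-3.17), H2-Aa (-3.10 ± 0.36), the proton channel gene Hvcn1 (-3.07 ± 0.24), Ly6d (-3.06), the light-chain gene Iglc3 (-2.97) and Chst3 (-2.89). These falls were chosen by the same rule, which required separate groups, and they held in all 12 fits that left out 1 mouse. H2-Ea-ps (-2.83), Gm8276 (-2.36) and Gm10736 (-2.24) fell most among predicted or pseudogene symbols.

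**Figure D2:**
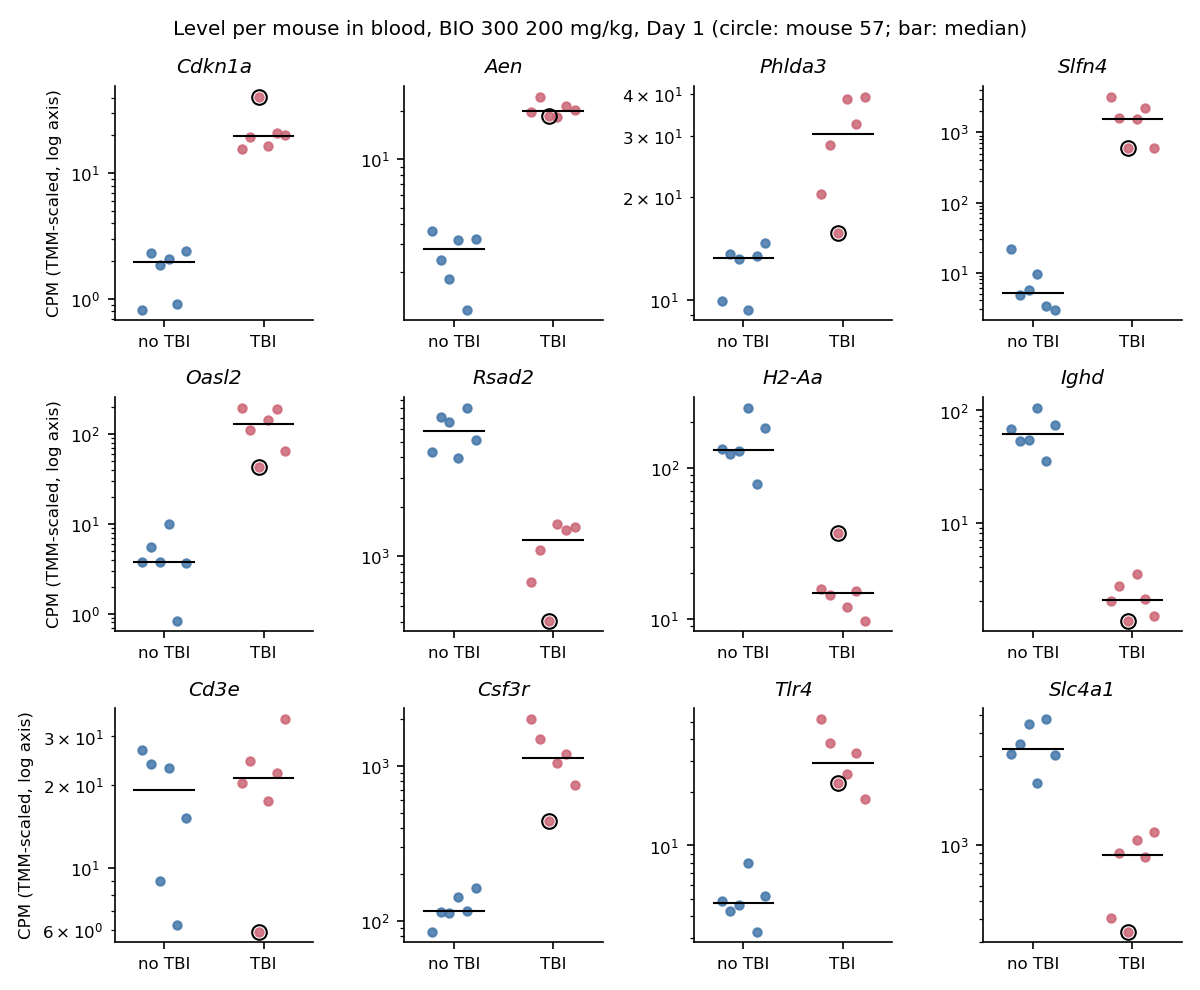
CPM (log axis) of 12 genes in each of the 6 unirradiated and 6 irradiated mice given 200 mg/kg, with a bar at the group median and mouse 57 circled. Slfn4, Cdkn1a, Aen and Csf3r separated upwards, Ighd, H2-Aa, Rsad2 and Slc4a1 separated downwards, and Cd3e overlapped between groups. For Slfn4, Ighd and H2-Aa the naming rule required separate groups.

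The p53 response was present over the drug. Of 25 p53 target genes, 19 were DEGs higher and none was lower, with a median log2 fold change of 1.85 beside 0.41 for all genes. Between 18 and 20 members were higher when any 1 mouse was left out, and 23 were higher against the Day 0 mice of the same dose (BIO300-High Day 0, bled 24 h after the last dose), a comparison that shares the irradiated mice and in which 16.4% of all genes were higher and 12.9% lower. Cdkn1a, which encodes the cell-cycle inhibitor p21, ranged from 0.825 to 2.43 CPM (median 1.99) without TBI and from 15.6 to 40.7 CPM (median 19.8) after it. The groups were separate and the log2 fold change was 3.67 ± 0.35 (edgeR adjusted p = 3.1e-05). Aen, an exonuclease gene that promotes apoptosis, ranged from 1.17 to 3.59 CPM (median 2.78) and from 18.3 to 24.5 CPM (median 20), a rise of 2.99 ± 0.25. The pro-apoptotic BCL2-family genes Bax and Bbc3 rose by 1.68 ± 0.15 and 1.67 ± 0.23, Ccng1 (cyclin G1) by 1.86 ± 0.18, Zmat3 by 1.79 ± 0.20, the antiproliferative gene Btg2 by 1.15 ± 0.24 and Phlda3, an inhibitor of AKT signalling, by 1.24 ± 0.23. The Btg2 call was lost without mouse 55 (0.98) and against the Day 0 mice (0.67). Eda2r, a death-receptor family gene, rose by 2.93 ± 0.66 with an edgeR adjusted p of 0.00512. Trp53inp1 rose by 1.31 ± 0.22 although its lowest irradiated mouse, 57 at 170 CPM, lay below the highest unirradiated mouse at 174 CPM.

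Mdm2, the ubiquitin ligase gene that closes the p53 feedback loop, was higher in every irradiated mouse (45 to 55.5 CPM against 23.1 to 38.4 CPM), but its log2 fold change of 0.69 ± 0.14 (edgeR adjusted p = 0.00248) was below the fold threshold. Perp reached 4.19 with an adjusted p of 0.0706, Rps27l 1.17 with an adjusted p of 0.095, and Psrc1 differed by 0.01. Perp stood at 24 CPM in mouse 57 and at 0.878 CPM or less in the other 11 mice. The count of Gdf15, a stress cytokine, was 0 in 5 of 6 unirradiated mice and 0.959 to 4.59 CPM in irradiated mice, so its fitted rise of 6.06 ± 0.85 rests on very low control counts. Among 24 DNA repair genes 2 were higher and 3 lower, with a median of -0.59 that became 0.32 with total counts. Over all genes 14.9% were higher and 5.73% lower. The damage-inducible genes Gadd45b and Gadd45g rose by 1.45 ± 0.29 and 1.52 ± 0.29, and Gadd45a was -0.21 with drug and rose by 1.39 with vehicle. The repair genes Parp1 (-1.42) and Brca2 (-1.06) were called lower, but Parp1 kept its call in 8 of 12 fits without 1 mouse and was -0.40 with total counts, and Brca2 kept it in 6 of 12 and was 0.21 against the Day 0 mice. The Brca2 call was also lost with DESeq2 (-1.0) and in the fit of 24 mice (-0.84). The transcript of p53 itself, Trp53, was -0.92 ± 0.15 (edgeR adjusted p = 0.000874), within the fold threshold. In the BCL2 family of 13 genes 2 rose and 2 fell, counts to be read beside the same shares of all genes. The survival gene Bcl2l1, abundant in red cell precursors, was at 1170 to 2480 CPM without TBI and 219 to 788 CPM after it (-1.82 ± 0.33), Bmf fell by 1.58, and Mcl1 rose by 1.25 ± 0.22 and Bcl2 by 1.10 ± 0.27. Against the Day 0 mice the Mcl1 (1.0) and Bcl2 (-0.37) calls were lost, and with total counts that of Bmf (-0.7). On the scale of all 24 mice, Bcl2 averaged 80.2 CPM in unirradiated and 45.5 CPM in irradiated vehicle mice.

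Phlda3 and Aen differed between drug and vehicle in their unirradiated levels. On the scale shared by all 24 mice, Phlda3 had a mean of 40.4 ± 13.2 CPM (SD, n = 6) in irradiated drug mice and 29 ± 6.44 CPM in irradiated vehicle mice, but 14.7 ± 2.09 CPM and 2.19 ± 0.965 CPM without TBI. Its effect was 3.64 with vehicle and 1.24 with drug, a difference of -2.27 (edgeR adjusted p = 0.00011). Aen went the other way, with irradiated means of 28.3 ± 2.2 CPM (drug) and 26.7 ± 3.44 CPM (vehicle) and unirradiated means of 3.1 ± 1.24 CPM and 7.84 ± 0.79 CPM, and its effect was larger with drug by 1.42. The p53 list as a whole gave 4 DEGs higher and 2 lower in the difference of effects, where 19.5% of all genes were higher and 10% lower. Its median difference was -0.01, beside 0.60 for all genes. With total counts 12 of the 25 were higher and 1 lower, at a median of 1.13 beside 1.68 for all genes, so a difference near 0 held only with TMM scaling.

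Interferon-stimulated genes rose, with 1 dominant exception. Of 27 such genes, 18 were DEGs higher and 1 was lower, with a median log2 fold change of 1.48. Ifit3 ranged from 4.09 to 12.4 CPM (median 5.04) without TBI and from 38.8 to 232 CPM (median 138) after it, a rise of 4.35 ± 0.49 (edgeR adjusted p = 6.91e-05). Every irradiated mouse was above every unirradiated mouse for Ifit3. Oasl2, named by the rule that required separate groups, had medians of 3.78 and 129 CPM. Oasl1 rose by 3.97, Rtp4 by 3.10, Oas1a by 3.01 and the antiviral GTPase genes Mx2 and Mx1 by 2.62 and 1.81. The RNA sensor genes Ddx58 and Ifih1 rose by 2.23 and 1.48, and the transcription factor genes Stat2 and Irf7 by 1.22 and 1.08 ± 0.27. The Irf7 call was lost without mouse 58 (1.0) and without mouse 59 (0.92). Against the Day 0 mice the Stat2 (0.87) and Mx1 (0.64) calls were lost. Reads of the near-identical Ifit3 and Ifit3b and of the Oas and Mx families can match more than 1 copy. Unique-hit counting leaves such reads out, so the separate values of these genes are uncertain.

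Rsad2, which encodes the antiviral enzyme viperin (chromosome 12, 26442746 to 26456452), fell. Its level was 4320, 7020, 6540, 3970, 8040 and 5130 CPM without TBI and 695, 1090, 406, 1580, 1440 and 1510 CPM after it. All irradiated mice lay below all unirradiated mice, and the log2 fold change was -2.38 ± 0.38 (edgeR adjusted p = 0.000625). Because Rsad2 was so abundant, the summed level of the 27 genes was 4660 to 8700 CPM without TBI and 1050 to 3880 CPM after it, although most members rose. Isg15, an interferon-induced ubiquitin-like modifier, had a median of 109 CPM without TBI and 66.7 CPM after it, a difference of -0.75 ± 0.28 that missed the threshold (edgeR adjusted p = 0.06) and was 0.08 with total counts. Ifit2 and Oas3, both at 0.68, were not DEGs either.

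Several of these genes had larger effects with vehicle, in which unirradiated levels were lower. The vehicle contrast gave 20 of 27 members higher, none lower and a median of 2.10. Isg15 was 1.49 with vehicle and Ifit1 3.92 against 2.18 ± 0.37 with drug, and the differences of -2.10 and -1.62 were DEGs. On the shared scale Isg15 averaged 134 CPM in unirradiated drug mice and 29.2 CPM in unirradiated vehicle mice, but 92.6 and 86.3 CPM in their irradiated counterparts. Rsad2 averaged 6940 ± 1670 CPM and 1740 ± 780 CPM without TBI, and 1550 ± 662 CPM and 1470 ± 957 CPM after TBI. The irradiated groups thus had means within 1 SD of each other for Rsad2, and the unirradiated groups did not. In all, 6 members had a lower and 2 a higher effect with drug, where 10% of all genes were lower and 19.5% higher. This balance depended on the scaling. With total counts the difference was higher for 7 members and lower for none, and the list medians were 2.35 with drug and 1.67 with vehicle.

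Promoters are shown for members that rose, fell or did not pass, because interferon-induced transcription acts through a known sequence, the interferon-stimulated response element. The windows below are the 250 bases before the RefSeq start of each gene (GRCm38.p6), read 5′ to 3′ on the gene's strand, and capitals mark the element as searched on either strand, GAAA, any 2 bases and GAAA again, with overlapping matches merged. Ifit3 (chr19:34583279-34583528, plus strand) and Ifit3b (chr19:34607707-34607956, plus) rose and each hold a pair of matches in nearly the same surroundings. Ifit1 (chr19:34640639-34640888, plus) rose less and also holds a pair. Rsad2 (chr12:26456453-26456702, minus) fell, and Isg15 (chr4:156200819-156201068, minus) did not pass the test.
Ifit3: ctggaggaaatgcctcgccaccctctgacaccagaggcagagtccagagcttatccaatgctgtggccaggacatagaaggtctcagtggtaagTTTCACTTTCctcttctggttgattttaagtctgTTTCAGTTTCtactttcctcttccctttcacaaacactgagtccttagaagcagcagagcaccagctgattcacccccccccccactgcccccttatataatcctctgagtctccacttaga
Ifit3b: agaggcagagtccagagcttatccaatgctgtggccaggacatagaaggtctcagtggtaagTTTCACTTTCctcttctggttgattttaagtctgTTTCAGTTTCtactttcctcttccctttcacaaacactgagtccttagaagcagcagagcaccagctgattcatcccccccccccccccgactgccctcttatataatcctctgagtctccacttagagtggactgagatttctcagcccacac
Ifit1: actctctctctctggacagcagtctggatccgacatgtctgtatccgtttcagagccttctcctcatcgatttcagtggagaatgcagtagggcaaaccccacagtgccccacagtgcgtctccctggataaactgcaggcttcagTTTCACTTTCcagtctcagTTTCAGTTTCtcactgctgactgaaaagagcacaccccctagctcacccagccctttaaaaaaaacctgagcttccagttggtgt
Rsad2: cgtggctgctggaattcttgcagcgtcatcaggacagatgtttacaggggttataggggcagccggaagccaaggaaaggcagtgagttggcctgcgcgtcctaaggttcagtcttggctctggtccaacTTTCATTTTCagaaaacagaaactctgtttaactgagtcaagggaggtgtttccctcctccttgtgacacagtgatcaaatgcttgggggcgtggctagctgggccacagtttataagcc
Isg15: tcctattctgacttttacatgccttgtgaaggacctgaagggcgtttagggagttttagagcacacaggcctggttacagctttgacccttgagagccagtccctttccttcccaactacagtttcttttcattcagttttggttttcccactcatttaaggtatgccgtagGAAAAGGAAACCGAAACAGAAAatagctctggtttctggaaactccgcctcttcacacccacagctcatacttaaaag
The match was found in 978 of 32851 mouse promoter windows of the same length (2.98%) and in 10 of the 20 list members with a RefSeq window. By call, 5 of 11 members that rose, 4 of 8 that were not called and Rsad2 held it, so members that rose and members that did not both included matches. A match is a description of the sequence and not of binding.

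MHC class II genes fell together. All 11 members of the class II list were DEGs lower, with a median of -2.68, and 9 of 11 remained so with total counts at a median of -1.75. Ciita, the master activator of class II transcription, ranged from 7.68 to 30.1 CPM (median 17.9) without TBI and from 1.1 to 3.3 CPM (median 1.42) after it (-3.35 ± 0.36, edgeR adjusted p = 5.51e-05). H2-Aa, the alpha chain of the I-A molecule (chromosome 17, 34282744 to 34287823), ranged from 77.7 to 249 CPM (median 131) and from 9.74 to 36.8 CPM (median 14.8). No irradiated mouse reached the unirradiated range for either gene, but both were named by the rule that required separate groups, so this is not a result. The invariant chain gene Cd74 fell by 2.68 ± 0.36, H2-Ab1 by 2.76 ± 0.39 and H2-Eb1 by 2.5 ± 0.36, and the peptide-loading genes H2-DMa and H2-DMb1 by 2.21 and 1.73. H2-DMb1 was the least secure, with an edgeR adjusted p of 0.0274 that was lost in 8 of 12 fits without 1 mouse. Mouse 57 was the highest irradiated mouse for H2-Aa, Cd74, H2-Ab1 and H2-Eb1, and without mice 43, 57 and 59 the list median was -3.00. The effect with vehicle was lower for all 11 too, at a median of -3.99, and 6 had a less negative effect with drug.

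Class II promoters are shown because they share a conserved arrangement that includes a CCAAT box. The windows are again the 250 bases before the RefSeq start (GRCm38.p6), and capitals mark CCAAT on either strand. H2-Aa lies at chr17:34287824-34288073 (minus strand), H2-Eb1 at chr17:34305617-34305866 (plus) and H2-Ob, an accessory gene that fell by 2.60, at chr17:34238655-34238904 (plus).
H2-Aa: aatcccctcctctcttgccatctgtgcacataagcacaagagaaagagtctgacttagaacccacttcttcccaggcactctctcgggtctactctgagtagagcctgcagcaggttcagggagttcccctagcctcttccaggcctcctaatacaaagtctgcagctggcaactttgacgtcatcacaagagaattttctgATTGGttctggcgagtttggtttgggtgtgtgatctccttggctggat
H2-Eb1: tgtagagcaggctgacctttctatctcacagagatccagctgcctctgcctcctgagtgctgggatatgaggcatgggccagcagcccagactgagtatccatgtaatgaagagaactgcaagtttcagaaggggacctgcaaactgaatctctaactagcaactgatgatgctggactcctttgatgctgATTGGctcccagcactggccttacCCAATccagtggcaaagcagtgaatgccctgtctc
H2-Ob: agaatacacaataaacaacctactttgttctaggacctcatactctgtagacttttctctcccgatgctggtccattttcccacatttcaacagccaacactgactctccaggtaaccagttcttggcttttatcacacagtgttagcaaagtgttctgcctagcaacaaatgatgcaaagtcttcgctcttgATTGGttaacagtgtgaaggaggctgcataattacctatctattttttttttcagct
CCAAT was found in 8 of the 8 class II members with a RefSeq window, in 8 of 20 interferon-stimulated members (40%) and in 11120 of 32851 promoter windows (33.8%). The interferon element was in none of the 8. The letters are common, and no binding was measured.

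B-cell genes fell with class II. Of 18 tested, 16 were DEGs lower and none higher, with a median of -2.29. The lineage factor gene Pax5 went from a median of 25.5 CPM (14.2 to 39.4) to 4.69 CPM (4.11 to 6.32), without overlap (-2.42 ± 0.23, edgeR adjusted p = 3.1e-05). The B-cell receptor signalling genes Cd79a and Cd79b fell by 2.54 and 2.41, Ms4a1, which encodes CD20, by 2.04 and Ighm, the IgM heavy chain, by 1.60 ± 0.27. In contrast, Cd22 (-0.81, edgeR adjusted p = 0.0471) and Cd37 (0.31), a tetraspanin gene shared with other leukocytes, stayed within the fold threshold. With total counts 9 were lower and 1 higher, at a median of -1.33. The vehicle contrast lowered 17 at a median of -3.49, and 13 of 18 had a higher, that is less negative, effect with drug. On the shared scale Ighd averaged 79.2 ± 32.3 CPM in unirradiated drug mice and 348 ± 74.1 CPM in unirradiated vehicle mice, against 3.03 ± 1.16 CPM and 4.97 ± 2.19 CPM after TBI.

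T-cell genes, which fell almost throughout with vehicle, were mostly not called over the drug. Of 23 T-cell genes, 2 were DEGs lower and none higher (median -0.26), and with total counts the same numbers were called at a median of 0.42. The vehicle contrast had 22 of 23 lower at a median of -2.37. The difference of the effects was a DEG in the higher direction for 22 of 23. Cd3e, an invariant subunit of the T-cell receptor complex, ranged from 6.26 to 26.8 CPM (median 19.2) without TBI and from 5.9 to 34.8 CPM (median 21.3) after it. The kinase gene Lck (-0.62) and the adaptor gene Lat (-0.39) were not called either. The Cd3e groups overlapped over nearly their whole range (0.26 ± 0.41, edgeR adjusted p = 0.661), whereas the vehicle effect was -2.18 and the difference 2.54. The means on the shared scale were 21.3 ± 11.1 CPM in unirradiated drug mice, 28.6 ± 12.4 CPM in irradiated drug mice and 21.6 ± 10 CPM in irradiated vehicle mice, with unirradiated vehicle mice at 93.6 ± 8.22 CPM. Tcf7, a T-cell transcription factor gene, was at 35 ± 15.4, 28.9 ± 9.69, 25.4 ± 14.2 and 156 ± 22.4 CPM in the same order.

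The genes that did fall were those of the CD8 co-receptor of cytotoxic T cells. Cd8b1 had a median of 3.67 CPM (0.668 to 5.43) without TBI and 0.264 CPM (0.0637 to 0.467) after it (-3.60 ± 0.58, edgeR adjusted p = 0.000675). Cd8a had a median of 2.51 CPM (0.751 to 6.32) and 0.367 CPM (0.102 to 1.11), an effect of -2.70 ± 0.60 (edgeR adjusted p = 0.00483). Cd8b1 separated the groups and Cd8a overlapped slightly. Against the Day 0 mice of the same dose, 22 of 23 T-cell genes were lower, at a median of -1.75, and Cd3e was -1.43. So the T-cell result depended on which unirradiated drug mice were the reference. Of 15 natural killer genes none was called, at a median of -0.64 (0.06 with total counts), and the granzyme gene Gzma was -0.96 ± 0.53 (edgeR adjusted p = 0.195), with the receptor genes Il2rb at 0.58 and Ncr1 at -0.78. Leaving out mice 43, 57 and 59 moved the T-cell median to 0.07 and left 2 lower.

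**Figure D3:**
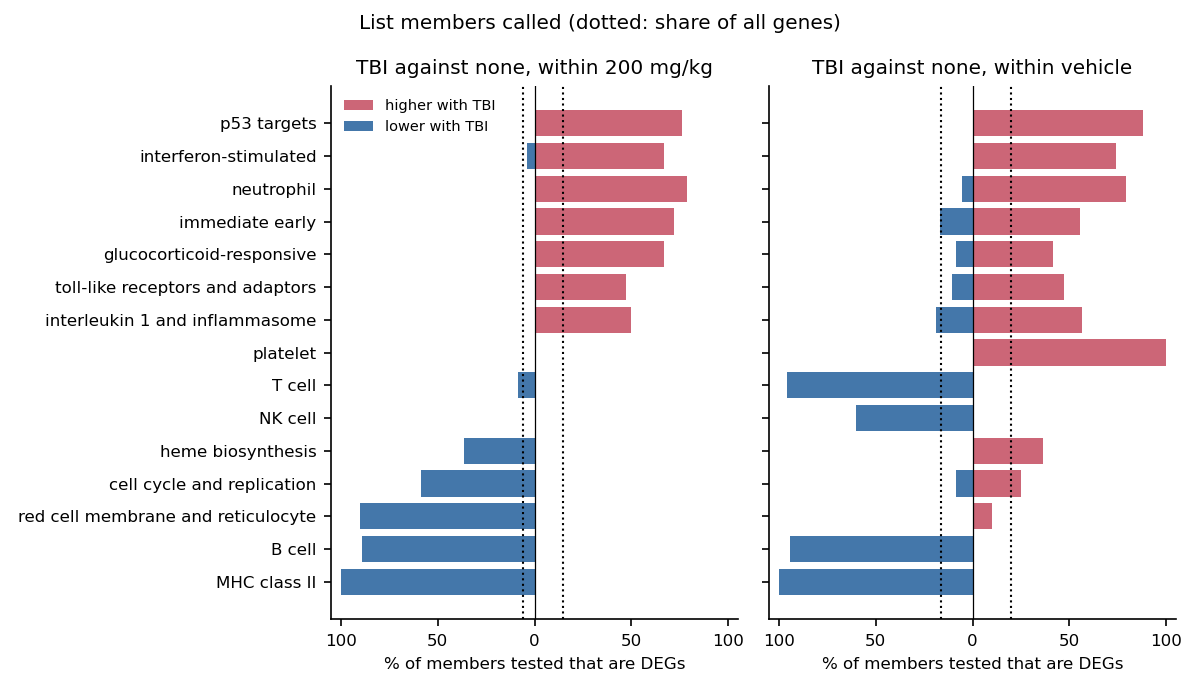
Percent of the members of 15 gene lists that were DEGs higher or lower after TBI, with drug and with vehicle, and dotted lines at the share of all genes in that direction. The p53, interferon and neutrophil lists were higher on both backgrounds, whereas T-cell genes (2 of 23 lower with drug, 22 of 23 with vehicle) and platelet genes (0 of 20 higher with drug, 20 of 20 with vehicle) were called with vehicle.

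Neutrophil genes rose on both backgrounds. Of 19, 15 were DEGs higher and none was lower, at a median of 2.40, and the vehicle contrast had 15 higher and 1 lower at 2.80. Csf3r, the receptor of the growth factor G-CSF, ranged from 85.1 to 163 CPM (median 116) without TBI and from 444 to 2020 CPM (median 1120) after it. Every irradiated mouse was above every unirradiated mouse (3.24 ± 0.34, edgeR adjusted p = 4.93e-05), and the difference from the vehicle effect of 3.19 was 0.18. The chemokine receptor gene Cxcr2 rose by 3.37 ± 0.32, the gelatinase gene Mmp9 by 3.06, the lipocalin gene Lcn2 by 3.01 and the calprotectin genes S100a9 and S100a8 by 1.59 ± 0.33 and 1.27. The granule protein genes Ltf (-0.42) and Ngp (-0.82), made earlier in maturation, did not pass, nor did Retnlg (0.27).

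Receptors of innate recognition rose with the neutrophil genes. Of 19 Toll-like receptor (TLR) pathway genes 9 were higher and none lower. Tlr4, the receptor for lipopolysaccharide, ranged from 3.26 to 7.92 CPM without TBI and from 18.2 to 51.9 CPM after it (2.65 ± 0.28, edgeR adjusted p = 5.15e-05). Its co-receptor gene Cd14 went from a median of 1.09 CPM to 10.3 CPM (3.39 ± 0.31), and Tlr13, which senses bacterial ribosomal RNA in mice, from 15.7 to 76.9 CPM (2.40 ± 0.23). Neither overlapped between groups. Tlr5, the flagellin receptor, rose by 3.07 ± 0.37, Tlr6 by 2.87 ± 0.35, Tlr2 by 2.38 ± 0.31, Tlr8 by 2.09 ± 0.24 and the adaptor gene Myd88 by 1.5. For Tlr6 and Tlr8 the effect was larger with drug by 1.62 and 1.15, with unirradiated Tlr6 means of 4.27 CPM (drug) and 15.1 CPM (vehicle) and irradiated means of 35.4 and 40.9 CPM. Tlr9, expressed by B cells, was -1.08 (edgeR adjusted p = 0.0612), and Tlr3 was 1.21 (edgeR adjusted p = 0.275) with mouse 57 highest at 3.39 CPM.

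Of 16 interleukin-1 pathway genes 8 rose, among them the cytokine gene Il1b (median 48 to 200 CPM, 1.99 ± 0.34), the inflammasome gene Nlrp3 (2.80) and the decoy receptor gene Il1r2 (3.23). C-type lectin genes had 5 of 10 higher, including Clec7a (2.31), a receptor for fungal glucans, and Clec4e (1.93 ± 0.29, edgeR adjusted p = 0.00041). Complement and Fc receptor genes had 7 of 15 higher and 3 lower. The anaphylatoxin receptor gene C5ar1 rose by 3.15 and the integrin gene Itgam by 2.81, while the IgM receptor gene Fcmr, a B-cell gene, fell by 2.40. Fcgr3, a low-affinity IgG receptor gene, rose by 1.83, whereas its signalling subunit Fcer1g was 0.41 (edgeR adjusted p = 0.173). Among chemokine and cytokine receptors, Ccr1 rose by 3.48, Il6ra by 2.29, Il18rap by 1.42 and Cxcr4, which holds leukocytes in marrow, by 1.03. The Cxcr4 call was lost without mouse 55 (0.89), without mouse 56 (0.97) and against the Day 0 mice (0.28). Monocyte lists were mixed, with 3 of 12 classical markers higher and 2 lower, beside 14.9% higher and 5.73% lower over all genes. Irf8, a transcription factor of monocytes, dendritic cells and B cells, fell from a median of 36.3 to 6.76 CPM (-2.38 ± 0.28, edgeR adjusted p = 8.24e-05), and Csf1r, the monocyte growth factor receptor, rose by 1.41 and Sirpa by 2.14. Chil3 was -1.43 (edgeR adjusted p = 0.0382), a call kept in 3 of 12 fits without 1 mouse and lost with total counts (-0.46). F13a1, coagulation factor XIII of monocytes and platelets, was -0.07, beside a rise of 2.14 with vehicle and a difference of -2.07. The mast cell and basophil receptor gene Ms4a2 was at 2.28 to 3.34 CPM without TBI and 0.0313 to 1.03 CPM after it (-3.23 ± 0.67, edgeR adjusted p = 0.00325), with Fcer1a at -2.92. Of 12 eosinophil and basophil genes 3 were lower, and without mice 43, 57 and 59 the counts were 1 higher and 2 lower. The third, Cd200r3 (-2.03), kept its call in 3 of 12 fits without 1 mouse.

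Platelet genes were called in neither direction over the drug. None of 20 was a DEG, at a median of 0.04, whereas all 20 were higher with vehicle (median 2.59) and all 20 had a lower effect with drug in the test of the difference (median -2.47). Ppbp, a platelet chemokine gene, had a median of 7290 CPM (5000 to 9530) without TBI and 6340 CPM (2000 to 8980) after it. Itga2b, the platelet integrin subunit, had medians of 2300 CPM (1320 to 2540) and 2000 CPM (688 to 3750). The groups overlapped for both genes, with effects of -0.25 ± 0.39 (edgeR adjusted p = 0.664) and 0.12 ± 0.38. The chemokine gene Pf4 was -0.15 and the calmodulin-binding protein gene Nrgn 0.05, where vehicle gave 2.48 and 2.58. With total counts 4 of 20 were higher and Ppbp changed sign to 0.56. On the shared scale Itga2b averaged 2460 ± 527 CPM in unirradiated and 3120 ± 1760 CPM in irradiated drug mice, and 276 ± 91.9 CPM and 2020 ± 1160 CPM in the vehicle mice. Against the Day 0 mice of the same dose, which share the irradiated mice, all 20 were higher at a median of 2.25. The platelet result, like the T-cell result, thus turned on the reference group.

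**Figure D4:**
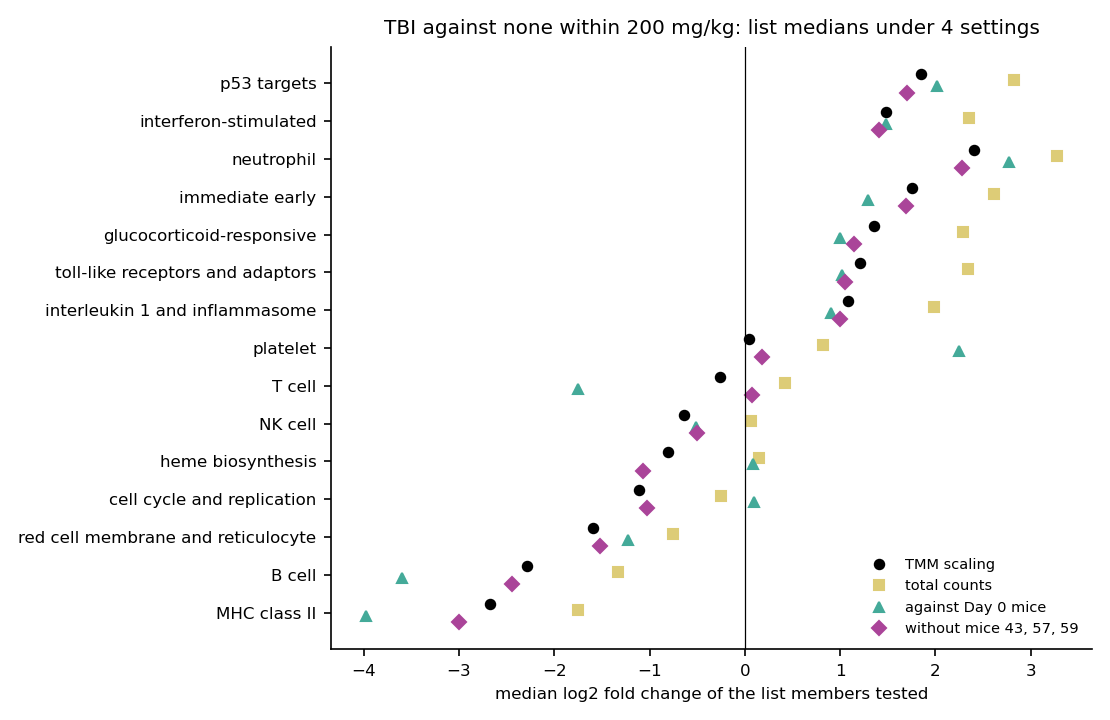
Median log2 fold change of 15 gene lists in the main contrast, with total-count scaling, against the Day 0 mice of the same dose and without mice 43, 57 and 59. B-cell and class II medians were negative in all 4 settings, p53 and neutrophil medians positive in all 4, and platelet and T-cell medians moved to 2.25 and -1.75 against the Day 0 mice.

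Red cell transcripts fell. Of 20 red cell membrane and maturation genes 18 were lower, at a median of -1.59, 9 of 20 were lower with total counts, and 12 of 20 against the Day 0 mice. Slc4a1, the band 3 anion exchanger (chromosome 11, 102348824 to 102366203), ranged from 2160 to 4780 CPM (median 3300) without TBI and from 340 to 1170 CPM (median 883) after it. The groups did not overlap (-2.15 ± 0.36, edgeR adjusted p = 0.000818). Epb41, the membrane skeleton protein 4.1 gene, fell by 1.51 (edgeR adjusted p = 0.019). Bnip3l, which drives removal of mitochondria in reticulocytes, fell by 2.35 ± 0.43 and Bpgm, the enzyme that makes the red cell metabolite bisphosphoglycerate, by 2.35 ± 0.42. Rhag and Tfrc, the transferrin receptor gene of earlier precursors, were -0.80 and -0.81 and not DEGs. With vehicle 2 of the 20 were higher and none lower, and the difference of the effects was lower for 11. These counts depended on the scaling. With total counts the vehicle contrast gave 2 higher and 8 lower, and the difference was called for none of the 20. Rhag averaged 138 and 92.5 CPM in the drug groups without and with TBI, and 28.7 and 90.6 CPM in the vehicle groups.

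Of 11 heme synthesis and iron genes 4 fell, at a median of -0.81 that became 0.15 with total counts, and 6 of 11 were lower without mice 43, 57 and 59 (median -1.07). With the Day 0 mice as reference 2 were lower, at a median of 0.09. Those that fell included the last enzyme of heme synthesis, Fech (-2.10 ± 0.45), and the mitochondrial iron importer Slc25a37 (-2.45 ± 0.44). The first enzyme of the erythroid pathway, Alas2, had medians of 90900 and 32600 CPM but did not pass (-1.67 ± 0.71, edgeR adjusted p = 0.0968). Of 4 haemoglobin genes 3 were lower, Hba-a2 (-2.12), Hba-a1 and Hbb-bt (-1.39, kept in 8 of 12 fits without 1 mouse), and Hbb-bs was -1.34 with an edgeR adjusted p of 0.303. Hba-a1 was -1.89 ± 0.59 (edgeR adjusted p = 0.0293) and remained a DEG in only 5 of 12 fits without 1 mouse, and reads of Hba-a1 and Hba-a2 cannot be assigned securely. The part of any globin depletion in these values was not tested. Against Day 0 mice none of the 4 was called and Hba-a1 was 0.41.

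Cell-cycle genes were lower against the Day 1 mice. Of 24, 14 were lower and none higher, at a median of -1.11, although with total counts none was called and the median was -0.25. Top2a, the topoisomerase of dividing cells, had medians of 136 CPM (93.8 to 231) and 56.4 CPM (28.3 to 62.3), without overlap (-1.53 ± 0.25, edgeR adjusted p = 0.000703). The replication helicase gene Mcm3 fell by 1.26 ± 0.29, and Mki67 was -0.44 ± 0.31 (edgeR adjusted p = 0.31). The count of lower members ran from 5 to 14 when 1 mouse was left out. With vehicle 6 were higher and 2 lower, and 15 of 24 had a lower effect with drug. With total counts the vehicle contrast gave 1 higher and 5 lower, and the difference was higher for 4 and lower for 3. Top2a averaged 174 and 70.6 CPM without and with TBI in drug mice, and 36.9 and 74.8 CPM in vehicle mice. With the Day 0 mice as reference 1 of the 24 was higher and 2 were lower, at a median of 0.10, with Top2a at 0.12 and Mcm3 at 0.30, opposite in sign to the Day 1 contrast.

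Immediate early and glucocorticoid-responsive genes rose. Of 18 immediate early genes 13 were higher and none lower (median 1.75). Dusp1, a phosphatase that turns off MAP kinases, went from a median of 39.3 CPM (27.4 to 71) to 205 CPM (140 to 334), without overlap (2.29 ± 0.26, edgeR adjusted p = 7.67e-05). Junb rose by 2.27, Fos by 1.82 ± 0.28 and Klf6 by 1.20, while Jund was -0.89. Of 12 glucocorticoid-responsive genes 8 were higher and none lower (median 1.36). Zbtb16 was at 4.95 to 7.3 CPM without TBI and 16.9 to 23.5 CPM after it (1.70 ± 0.15, edgeR adjusted p = 2.79e-05), and the clock gene Per1 by 1.37 and the chaperone gene Fkbp5 by 1.15, and Cebpd, a factor of myeloid differentiation, by 2.59, whereas Tsc22d3 at 0.91 was below the fold threshold. Against Day 0 mice 5 of the 12 were higher, at a median of 1.0, and the vehicle contrast gave 5 higher and 1 lower. The Per1 (0.74) and Fkbp5 (0.85) calls were lost against the Day 0 mice.

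Genes of antioxidant enzymes and of the pathway of NRF2, the oxidative stress factor, gave few calls over the drug. Of 20, 2 were higher and 3 lower at a median of -0.12, where 14.9% of all genes were higher and 5.73% lower. With vehicle 12 were higher and none lower (median 1.19). Against the Day 0 mice 10 were higher and 1 lower (median 0.98), so these calls also turned on the reference group. With total counts 6 were higher and none lower (median 0.77), and without mice 43, 57 and 59 the counts were 2 higher and 5 lower. Hmox1, heme oxygenase, rose from a median of 3.63 to 7.39 CPM (1.27 ± 0.25, edgeR adjusted p = 0.00223) and the cystine transporter gene Slc7a11 by 1.48. The lower members were Nqo1 (-1.23), Gpx1 (-1.77) and Prdx2 (-1.85), of which Gpx1 and Prdx2 are antioxidant genes abundant in red cells, and Cat, catalase, was -1.0 (edgeR adjusted p = 0.0155). In the difference of effects 10 of 20 were lower and none higher. With total counts that difference was lower for 2 and higher for 2, and the vehicle contrast gave 7 higher and 1 lower. Of 11 genes of oestrogen receptors and their coregulators, listed because genistein binds these receptors, the membrane receptor gene Gper1 was higher (2.61, at no more than 0.344 CPM in any mouse) and none was lower. The Gper1 call held in 4 of 12 fits without 1 mouse and was lost with DESeq2 (adjusted p = 0.0805) and against the Day 0 mice (1.10).

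Values of several receptor and complement genes that the study singles out rested on mouse 57. Fgfr1 had 62.6 CPM in mouse 57 and 0.742 to 4.34 CPM in the other 5 irradiated mice, against 0.338 to 1.27 CPM without TBI. Its log2 fold change was 4.25 ± 1.09 (edgeR adjusted p = 0.011), and without mice 43, 57 and 59 it was 1.72 and still a DEG. The complement gene C3 reached 705 CPM in mouse 57 and gave 2.99 ± 0.95 (edgeR adjusted p = 0.0324), which became 1.05 (edgeR adjusted p = 0.102) without that mouse. Egfr, Fgfr2, Fgfr3, Fgfr4, Hc, Tgfa, Tlr3 and S100b were not DEGs, and the S100b level was 0 to 0.452 CPM in all 12 mice. The growth factor gene Tgfb1 was -0.16 (edgeR adjusted p = 0.689). In the same mouse Ttn, the giant muscle protein titin, reached 2910 CPM and the muscle creatine kinase gene Ckm 204 CPM. Without mouse 57 their effects went from 10.22 to 1.29 and from 9.09 to 0.95. Tnni3, Actn2, Cmya5 and Cox6a2 were at 318, 133, 144 and 68.8 CPM in mouse 57 and at 1.86 CPM or less in the others. The part of tissue transcripts in any other result was not tested beyond the values without these mice.

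Between the drug and vehicle contrasts, which share no mice, 22934 genes were tested in both. The 1725 genes that were DEGs in the same direction (1403 higher and 322 lower) made up 35.4% of the 4873 DEGs with drug and 19.1% of the 9042 DEGs with vehicle. Another 368 were DEGs in opposite directions. Of the 3067 genes lower with vehicle and not called with drug, 1817 had a higher effect with drug in the test of the difference, and of the 3274 that were higher with vehicle and not called with drug, 1545 had a lower effect. The difference of effects itself was a DEG for 5248 genes in the higher and 2697 in the lower direction. Its total-count version gave 11725 and 483, so its balance also depended on the scaling, while the median difference of all genes went from 0.60 to 1.68.

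Genes called in opposite directions included Ftl1, the ferritin light chain, which ranged from 12400 to 30400 CPM without TBI and from 2700 to 10600 CPM after it with drug. It fell by 1.42 ± 0.46 (edgeR adjusted p = 0.037) with drug, a call kept in 7 of 12 fits without 1 mouse, and rose by 1.34 with vehicle. On the shared scale its means were 23100 and 10100 CPM in the drug mice, and 3710 and 9920 CPM in the vehicle mice. The mitotic checkpoint gene Bub1b fell by 1.36 ± 0.30 with drug and rose by 1.33 with vehicle, with means of 95.7 and 43.6 CPM, and 18.4 and 48.7 CPM. Mcm10, a replication initiation gene, and Ugt8a, an enzyme of galactolipid synthesis, fell by 1.24 and 1.32 with drug and each rose by 1.87 with vehicle. For Ftl1 and Bub1b the irradiated means were close between drug and vehicle, and the unirradiated means differed several-fold. Against the Day 0 mice the 4 genes were 0.30, 0.22, 0.33 and 0.58, so their falls held only for the Day 1 reference. Of the genes with the most negative difference of effects, Slc3a1, Fads2 and Pmp22 were 0.22, 0.16 and 0.43 with drug and rose by 3.83, 3.59 and 3.63 with vehicle. The irradiated vehicle mice were uneven for these genes on the shared scale, from 0.732 to 68.2 CPM for Slc3a1, 14.2 to 174 CPM for Fads2 and 4.17 to 54.7 CPM for Pmp22. The hepatocyte gene Alb ran from 0 to 15700 CPM in that group and from 0.0454 to 5720 CPM in irradiated drug mice, and its part in these differences was not tested. The plot of effects on both backgrounds shows these families together.

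**Figure D5:**
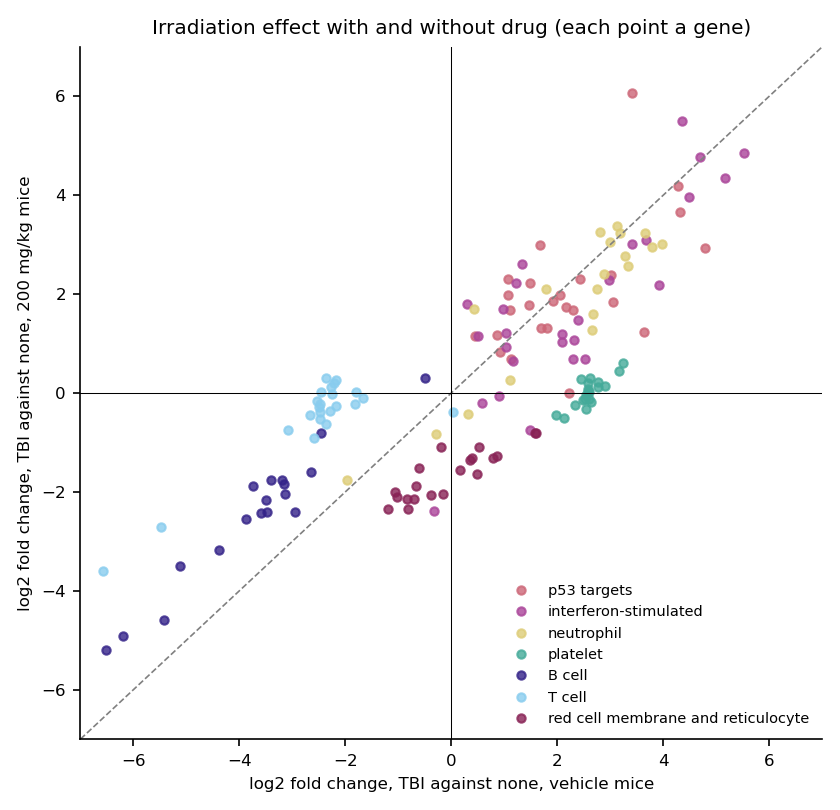
Log2 fold change after TBI with vehicle (horizontal) against that with BIO 300 at 200 mg/kg (vertical) for the members of 7 lists, with the dashed line at equal effects. T-cell genes lay above the line (median difference 2.34), platelet genes below it (median difference -2.47), and p53 genes around it (median difference -0.01). These values are with TMM scaling. With total counts the median differences were 3.38, -1.26 and 1.13 in the same order.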

How the data were processed

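Whole-blood RNA from 60 mice in 10 groups of 6 was sequenced, and the 12 mice given 200 mg/kg on Day 1, with or without TBI, were compared here, with 12 vehicle mice and the 6 BIO300-High Day 0 mice as references. The labels name poly(A) selection, whereas the methods describe a stranded total RNA kit with ribosomal and globin depletion, and which one applies could not be settled. Per the submitters' processing notes, the tools were Trimmomatic 0.36 for trimming, STAR 2.5.2b for alignment on GRCm38 and Subread 1.5.2 for counting hits unique to a gene. The deposited values are the authors' raw counts for 49315 Ensembl genes, unnormalized. Some mice stand in several tables, and all 60 repeated columns were identical to their first copies. Tables of the authors' own comparisons, which hold fold changes, p-values and normalized counts, were not used.

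Genes with at least 10 counts summed over the mice of a fit were tested in R 4.3.3 with the edgeR 4.0.16 quasi-likelihood test (limma 3.58.1) on TMM-scaled counts, with Benjamini-Hochberg adjustment over all genes tested and no covariate. DEGs changed by more than 1 on the log2 scale with an adjusted p below 0.05. The SE is the absolute fold change divided by the square root of F. The difference of effects came from 1 fit of 24 mice. Alternatives were DESeq2 1.42.0, other scalings and filters, leaving out each mouse, the Day 0 mice as reference, the fit of 24 mice and, chosen after seeing the data, leaving out mice 43, 57 and 59 and testing protein-coding genes alone. Replicates were separate animals, and no pair of libraries agreed within sampling noise (chi-square per gene at least 12). In simulated counts for the drug comparison (23610 genes) the test found 49% of 100 genes changed by 1.5 and 75% of 100 changed by 2.5 on the log2 scale, with 8 false calls.

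The groups, gene lists and tests were chosen with earlier results of these data known. Genes are named by these rules: the 10 largest DEGs in each direction whose mean reached 10 CPM in either group, with no overlap and no predicted symbol, and the 3 largest with one; the 3 most abundant members of each list; 10 standard p53 targets; genes the study names; the 5 largest differences of effect in each direction; and 5 genes called in opposite directions. Other genes were named after their values were seen, and some that the rules name are not reported here. Promoter windows came from a RefSeq table (GRCm38.p6) matched by symbol.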

Additional observations from a re-analysis of the deposited data

Results flagged for a closer look

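The 392 gene and group combinations behind the named genes, on the log2(CPM + 1) scale, were searched for a mouse whose gap to its nearest neighbour took up more of its group's range than Dixon's 95% critical value, which chance gives in about 1 in 20 groups of 6. It was found 50 times, 41 of them for irradiated mouse 57. That mouse was highest for muscle genes, with gap shares of 0.995 for Tnni3, 0.993 for Cox6a2, 0.986 for Actn2, 0.968 for Ckm, 0.93 for Cmya5 and 0.909 for Ttn. It was also highest for receptor, complement and growth factor genes, at 0.94 for Fgfr4, 0.876 for Fgfr3, 0.815 for Fgfr2, 0.689 for Fgfr1, 0.866 for Egfr, 0.904 for Tgfa, 0.811 for Hc, 0.677 for C3 and 0.847 for Tlr3. Among p53 targets it was highest for Perp (0.936), Rps27l (0.898), Cdkn1a (0.7), Eda2r (0.672) and Ccng1 (0.641), and among class II genes for H2-Ab1 (0.8), H2-DMa (0.793), Cd74 (0.699), H2-Eb1 (0.669), H2-Ea-ps (0.662) and H2-Aa (0.643). Pmp22 (0.905), Slc3a1 (0.845) and Parp1 (0.666) completed its high values. Mouse 57 was lowest for Fcer1g (0.919), Trp53inp1 (0.772), Bid (0.757), Lat (0.752), Isg15 (0.704), Jund (0.688), Slc7a11 (0.684), Nrgn (0.679), Brca2 (0.659), Ifit2 (0.654), Gzma (0.643) and Bcl2 (0.634). It had the largest TMM factor, 2.036, and the part of its tissue transcripts in these values was not tested.

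The other 9 were spread over 3 mice. Unirradiated mouse 43, with hepatocyte genes, was highest for Fgfr3 (0.875), Gm44292 (0.856), Hc (0.798), Egfr (0.726) and Prr33 (0.663), and lowest for Lcn2 (0.74). Unirradiated mouse 47 was highest for Slc3a1 (0.691) and lowest for Parp1 (0.674). Irradiated mouse 56 was highest for the basophil gene Cd200r3 (0.891).

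The effect of TBI differed between drug and vehicle for 86 of 196 named genes by the edgeR test of the difference on the log2 scale (adjusted p under 0.05 and absolute difference over 1), 48 higher and 38 lower with drug. A positive value means a higher effect with drug. Among T- and B-cell genes and class II genes, which fell more with vehicle, it was 3.05 for Cd8b1, 2.87 for Cd8a, 2.54 for Cd3e, 2.34 for Tcf7, 1.86 for Lck, 1.75 for Fcer2a and for Cd22, 1.48 for Fcmr, 1.46 for Cd79a, 1.41 for Ighd, 1.34 for Fcrla, 1.3 for Pax5, 1.21 for Ms4a1, 1.19 for Cd79b, 1.16 for Ighm, 1.6 for Chst3, 1.13 for Hvcn1, 2.25 for H2-Ob, 2.21 for H2-DMb1, 1.67 for Ciita and 1.36 for H2-Ab1. Myeloid and innate genes with a higher effect were Tlr9 (1.91), Tlr6 (1.62), Tlr8 (1.15), Unc93b1 (1.4), Il6ra (1.57), Chil3 (2.2), Cd200r3 (1.87), Trpm2 (2.04) and Slfn4 (2.19). Interferon-related genes split, with Trim30b at 1.71, Mx1 at 1.61 and Ddx58 at 1.11, but Isg15 at -2.1, Rsad2 at -1.93, Ifit2 at -1.7, Ifit1 at -1.62, Oas3 at -1.49 and Irf7 at -1.12. Other higher effects were Prr33 (3.74), Gm44292 (3.21), Gpr182 (3.05), 1700071M16Rik (2.87), Gm15832 (2.63) and Per1 (1.26).

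Stress genes were on both sides, with Gdf15 at 2.71, Bcl2 at 2.09 and Aen at 1.42, and Phlda3 at -2.27, Psrc1 at -2.07, Bid at -1.57, Gadd45a at -1.45 and Brca2 at -1.73. Platelet genes were lower with drug, with Itga2b at -2.53, Pf4 at -2.5, Ppbp at -2.44, Nrgn at -2.39 and F13a1 at -2.07. Red cell genes were lower, with Hba-a2 at -2.38, Hba-a1 at -2.27, Tfrc at -2.26, Rhag at -2.24, Alas2 at -2.00, Prdx2 at -1.76 and Fech at -1.62, as were the dividing-cell genes Mcm10 (-2.99), Bub1b (-2.54), Top2a (-2.32), Mcm3 (-2.04) and Mki67 (-1.72). Slc3a1 (-3.48), Fads2 (-3.34), Pmp22 (-3.07), Ugt8a (-3.04), Gm10736 (-2.94), Ftl1 (-2.62), Jund (-1.3), Nqo1 (-1.25), Fcer1g (-1.17) and Clec4d (-1.09) were lower too. The muscle genes Tnni3 (13.57), Actn2 (10.5), Ttn (9.1), Cox6a2 (9.01), Ckm (8.75) and Cmya5 (7.57) had the largest values. They were carried by mouse 57 and, with counts at or near 0 elsewhere, depend on the prior count of the fit and are no measure of fold.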

How the results depend on the processing

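No paired analysis was possible because animal numbers are not shared between the groups compared. Leaving out 1 mouse gave 3972 to 5158 DEGs with drug (2815 to 4021 higher, 865 to 1479 lower), 7852 to 9693 with vehicle (4114 to 5234 higher, 3738 to 4994 lower) and 6906 to 9373 for the difference of effects (4620 to 6319 higher, 2286 to 3436 lower). The 865 came without unirradiated mouse 47. Total-count scaling gave 9323 DEGs with drug (9100 higher, 223 lower), 3115 higher with vehicle and 12208 for the difference (11725 higher, 483 lower). With drug, edgeR's filterByExpr gave 2215 higher, the 24-mouse fit 5840 higher, the Day 0 mice 3190 lower, and protein-coding genes alone 2897 DEGs (1889 higher). filterByExpr gave 2734 lower with vehicle. The share of DEGs that were higher with drug was 72.3%, 97.6% with total counts, 85.1% in the 24-mouse fit and 56.1% against the Day 0 mice. For the difference it was 66.1%, or 96% with total counts. The cause of these shifts was not tested. The other counts of DEGs, DESeq2 (4835 with drug) and DESeq2 size factors included, stayed within 1.5 times. Among the 196 named genes, 140 were DEGs, and the calls lost were 22 with total counts, 26 against the Day 0 mice, 8 with DESeq2, 4 in the 24-mouse fit and 5 of 139 without mice 43, 57 and 59.

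Signs that turned belonged mostly to genes that were not called. With total counts the log2 fold change became 0.61 for Gadd45a, 0.08 for Isg15 and Lck, 0.39 for Lat, 0.28 for Tcf7, 0.02 for Ngp, 0.47 for Ltf, 0.72 for F13a1, 0.63 for Tgfb1, 0.56 for Ppbp, 0.67 for Pf4, 0.06 for Rhag, 0.08 for Tfrc, 0.40 for Mki67 and 0.55 for S100b. Against the Day 0 mice, DEGs that turned were Brca2 (0.21), Bcl2 (-0.37), Hba-a1 (0.41), Hba-a2 (0.30), Mcm3 (0.30), Top2a (0.12), Ugt8a (0.58), Mcm10 (0.33), Ftl1 (0.30) and Bub1b (0.22). Uncalled genes that turned there were Gadd45a (0.89), Isg15 (0.07), Cd37 (-0.46), Lat (0.32), Cd3e (-1.43), Ngp (0.08), Ltf (0.73), F13a1 (2.09), Ppbp (1.89), Pf4 (2.06), Hbb-bs (0.12), Rhag (0.68), Tfrc (0.71), Mki67 (0.81), Jund (0.08) and Tgfb1 (1.08). The 24-mouse fit turned Gadd45a (0.01), F13a1 (0.15), Pf4 (0.07) and Tgfb1 (0.05). Without mice 43, 57 and 59 the values were 0.08 for F13a1, -0.60 for Tlr3, -0.28 for Egfr, -3.35 for Fgfr2, -1.11 for Hc, -3.82 for Alb, -4.59 for Cox6a2, -0.95 for Slc3a1, -0.12 for Fads2, -0.32 for Pmp22 and -0.15 for Cmya5, the last a DEG with all mice. F13a1 was 0.0 with DESeq2 and with its size factors, 0.03 with TMM computed without haemoglobin and structural RNA, and 0.07 without a filter, where S100b was 0.0. Psrc1 was -0.02 with filterByExpr.

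Over the fits that left out 1 mouse, values of uncalled genes that turned in several of them ran from -0.12 to 0.34 for Psrc1, -0.36 to 0.12 for Gadd45a, -0.04 to 0.37 for Bid, -0.23 to 0.27 for F13a1, -0.09 to 0.40 for Nrgn, -0.30 to 0.18 for Pf4, -0.62 to 2.62 for S100b and -0.25 to 0.16 for Tgfb1. Values that turned in 1 fit ran from -0.11 to 5.86 for Perp, -0.02 to 0.37 for Mdc1, -0.38 to 1.62 for Tlr3, -0.39 to 0.09 for Ppbp, -0.09 to 0.46 for Itga2b, -2.38 to 5.10 for Egfr, -0.86 to 2.72 for Fgfr2, -0.92 to 4.28 for Fgfr3, -1.5 to 5.37 for Fgfr4, -1.87 to 6.43 for Hc, -3.21 to 6.97 for Alb, -4.52 to 5.45 for Cox6a2, -0.82 to 0.85 for Slc3a1 and -0.15 to 0.73 for Pmp22. Among DEGs, Actn2 and Cmya5 turned in 1 fit and ran from -1.48 to 9.09 for Actn2 and -0.51 to 5.33 for Cmya5. Depth limited genes near 1 CPM, such as Gdf15, Cd8a and Camp, for which counts were few.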
